A study of Mus musculus with 32 samples.

Results

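The comparison described here set mouse embryonic stem cells (ESCs) that lacked *Etv5* against the cells from which they were made, both in 2i. It used 6 of the 32 RNA-seq libraries of the series, 3 of Etv5-KO and 3 of RGd2, and covered the 13201 genes, of 51826 in the count table, with a mean of at least 1 CPM in either group. CPM, the usual measure of relative abundance, scale each library's counts on genes to the same sum. In RGd2 cells the naive-specific *Rex1* locus drives a short-lived GFP, and all lines compared were made in that background. 2i is the pair of the MEK inhibitor PD0325901 and the GSK3 inhibitor CHIR99021 in serum-free N2B27 medium. All lines, controls included, were routinely grown with CHIR99021 and LIF and moved into 2i shortly before the assay. The Etv5-KO libraries 25, 26 and 27 came from 3 separate clones, c16, c17 and c1, and each clone stands for 1 editing event. RGd2 libraries 31 and 32 came from the parental line and library 33 from its clonal derivative. Nothing in the labels states a shared culture or day between a mutant and a control library. The spread behind the p-values was estimated from all 32 libraries of the series in 1 model, and includes that between clones.

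ETV5 is a transcription factor of the PEA3 group of the ETS family, together with ETV4 and ETV1. In many tissues the PEA3 genes are induced when FGF receptors activate ERK, a route that the MEK inhibitor of 2i closes. Mouse ESCs in 2i are held in naive pluripotency, the state of the early epiblast. On release they lose naive factors and gain a formative program before they respond to lineage cues.

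The mutation was made with 2 Cas9 guides, shown here because they fix which part of *Etv5* the counts can and cannot report on. Each is the oligonucleotide as ordered, with the guide in capitals and the cloning overhang in lower case.
Etv5_gRNA_ex8: caccgCGCAGCTCCGCCACCCCTTC
Etv5_gRNA_ex9: caccgGAAATACCCGCCTCTCATGT
On the mouse build GRCm38 (mm10) the first guide lies at chr16:22401804-22401823 and the second at chr16:22399336-22399355, in coding sequence of exons 8 and 9 of both full-length coding transcripts, which have 13 exons. *Etv5* is on the minus strand. The first guide reads along the transcript and the second against it, and each is followed by an NGG motif. From outer end to outer end the guides span 2488 bases, so most exons of *Etv5* lie outside them and reads from those exons still enter the gene's count.

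Libraries differed in depth and in 2 features that touch the results below. The 6 libraries held between 5986857 and 38225032 counts on genes. RGd2 library 33 was the shallowest, and correlated with libraries 31 and 32 at a Pearson r of 0.983 over genes on the log2 scale, against at least 0.997 for the other replicate pairs. In library 33 the Y-linked gene *Ddx3y* had 0 counts, against 87.1 and 95.5 CPM in libraries 31 and 32. In the Etv5-KO libraries *Ddx3y* was at 100.4, 110.4 and 90.9 CPM. ERCC spike-ins are added RNA, and scaling to them takes the amount added as equal, which the published methods do not state. The spike-ins took 0.991%, 1.19% and 1.39% of counts in RGd2 libraries 31, 32 and 33. In Etv5-KO they took 1.25%, 1.33% and 1.41%. The mean share was 1.19% ± 0.201 in RGd2 and 1.33% ± 0.0830 in Etv5-KO (SD, n = 3 each). The difference did not exceed the spread (exact permutation test, two-sided, p = 0.4, where 0.1 is the smallest p that 3 against 3 allows).

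In the libraries labelled Etv5-KO the targeted gene was strongly reduced and its 2 close relatives were raised. *Etv5* was counted at 506, 512 and 642 CPM in RGd2 and at 84.3, 81.5 and 99.7 CPM in Etv5-KO, a log2 fold change of -2.79 ± 0.16 (SE) with spike-in scaling and of -2.56 with TMM scaling (edgeR adjusted p = 3.3e-17 and 2.7e-13). All mutant libraries were far below all RGd2 libraries, and the counts that remained cannot say which exons they come from. *Etv4* stood at 3.62, 4.21 and 4.34 CPM in RGd2 and at 18.3, 15.1 and 20.2 CPM in Etv5-KO, a log2 fold change of 1.97 ± 0.14 (SE). *Etv1* went from 18.5, 18.2 and 24.9 CPM to 35.4, 26.5 and 33.1 CPM, a log2 fold change of 0.50 ± 0.13 (SE). Neither relative overlapped between the groups, as was so upward for 19.7% of all genes. Per length, *Etv5* remained the most abundant of the 3 transcripts in the mutant, with a mean of 21.6 FPKM (135 in RGd2), against 5.75 FPKM for *Etv4* (1.31) and 2.38 FPKM for *Etv1* (1.54).

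How many genes appeared to rise or fall depended on what the counts were scaled to. With size factors from the spike-ins, which hold the added RNA constant, 892 genes were called higher in Etv5-KO (6.76% of those tested) and 3747 lower (28.4%), at an adjusted p under 0.05. Scaled with TMM, which holds the bulk of genes constant, 2611 genes were called higher (19.8%) and 1838 lower (13.9%). The share of higher genes among those called was 19.2% with spike-ins and 58.7% with TMM. The median log2 fold change of all expressed genes was -0.20 with spike-ins and 0.04 with TMM, a shift of 0.24 between the scalings. Without RGd2 library 31, which had the lowest spike-in share, the spike-in counts became 1168 higher and 1923 lower and the median log2 fold change -0.05.

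**Figure D1:**
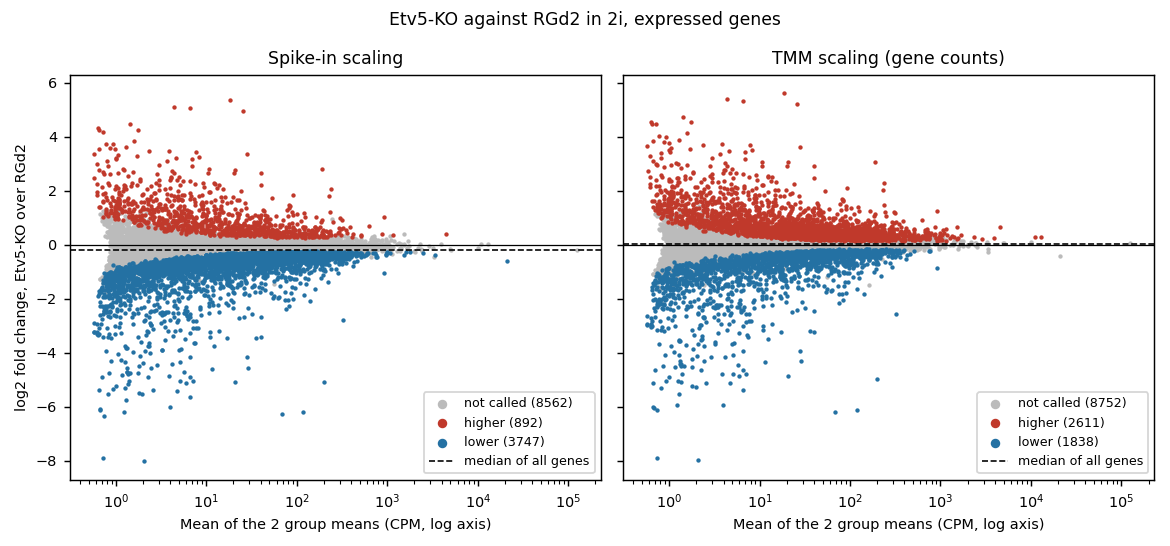
Log2 fold change of Etv5-KO over RGd2 in 2i (y axis) against mean CPM (x axis, log scale) for 13201 expressed genes, with spike-in scaling on the left and TMM scaling on the right. Red and blue points are genes called higher and lower, grey points are not called and the dashed line is the median, which lies at -0.20 on the left and at 0.04 on the right.

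No gene changed its direction of call between the scalings, and the calls were nested. Every gene called higher with spike-ins was also called higher with TMM, and every gene called lower with TMM was also lower with spike-ins. Both scalings use the same counts and differ mainly by the shift of 0.24 (median), so nesting largely follows and is no added evidence. Under both scalings, therefore, 892 genes rose (6.76%) and 1838 fell (13.9%). "Rose" and "fell" below are used only of these genes. Another 1909 genes were called lower only with spike-ins and 1719 higher only with TMM, and their direction of call rests on the scaling. Among all genes tested, 19.7% had every Etv5-KO library above every RGd2 library in CPM and 20.8% had every Etv5-KO library below. This held for 864 of the 892 genes that rose and 1632 of the 1838 that fell. Groups that do not overlap at a single called gene therefore add little to its call. At least 2-fold changes under both scalings numbered 368 upward and 580 downward, and at least 4-fold changes 96 and 207. Leaving out library 33 gave 798 and 2101 genes under both scalings, of which 742 and 1578 were among those called with all libraries.

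Large losses fell on a Notch receptor, on a mesoderm factor, on an FGF ligand and on a run of neighbouring genes on chromosome 7. *Notch4*, which encodes a Notch receptor, was counted at 38.3, 36.3 and 44.9 CPM in RGd2 and at 1.10, 1.51 and 1.29 CPM in Etv5-KO. Its log2 fold change of -5.09 ± 0.18 (SE) had the smallest p of all genes that fell (edgeR adjusted p = 6.6e-24), and -4.85 with TMM. *Fgf17*, an FGF ligand, went from 13.8, 12.1 and 15.7 CPM to 0.288, 0.592 and 0.528 CPM, with a log2 fold change of -5.05 ± 0.29 (SE). Both are among the 12 largest losses, which were named on condition that the groups did not overlap.

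*T* (Brachyury), a T-box factor of early mesoderm, was present in the 2i controls at 13.8, 11.5 and 7.52 CPM and in the mutant at 0.445, 0.592 and 0.501 CPM (log2 fold change -4.70 ± 0.29, SE). *Vrtn*, the mouse counterpart of a gene tied to vertebra number in livestock, showed the largest loss of the 12 named per direction, from 14.5, 12.7 and 11.7 CPM to 0.183, 0.230 and 0.475 CPM (log2 fold change -5.63 ± 0.35, SE). *Lef1*, a TCF/LEF factor of the Wnt pathway, went from 54.0, 53.8 and 51.1 CPM to 4.03, 2.53 and 3.38 CPM (log2 fold change -4.16 ± 0.20, SE). No mutant library reached the lowest control at these genes. For *T* and *Vrtn* this was a condition of being named among the 12 largest losses. *Ccnd2*, which encodes cyclin D2, fell by 5.1 on the log2 scale, and *Epas1*, which encodes the hypoxia factor HIF-2 alpha, fell by 4.90. *Crmp1*, a regulator of neuronal growth cones, fell by 3.17 and *Ddah1*, which degrades dimethylarginine, fell by 3.46.

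**Figure D2:**
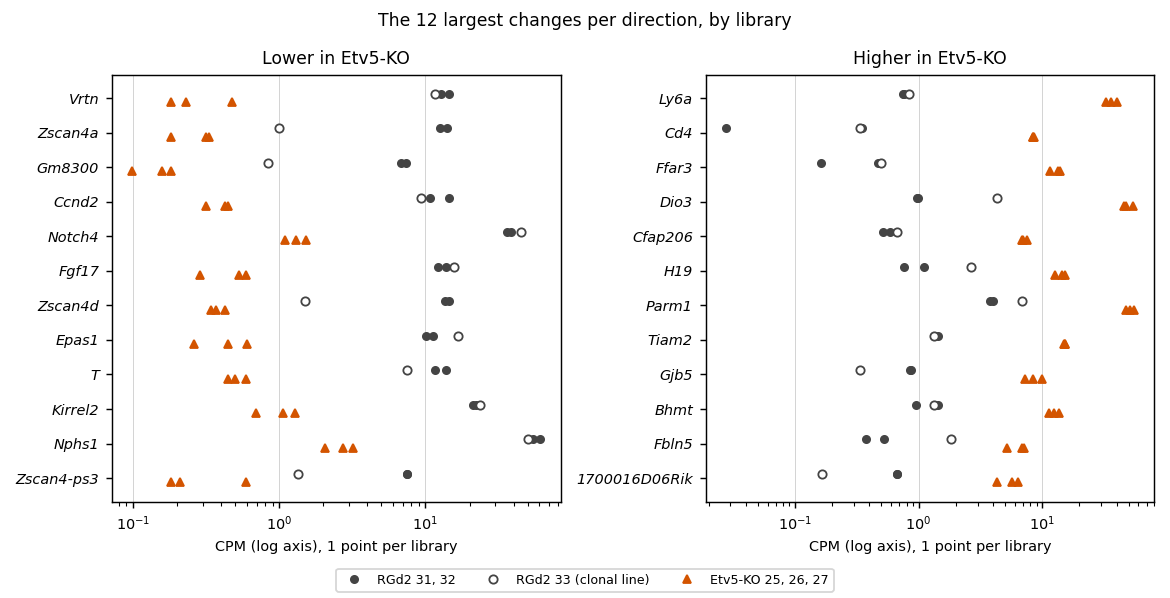
CPM (log axis) in each library for 12 genes that fell (left) and 12 that rose (right), those whose fold changes under spike-in scaling were farthest from 0 among genes called under both scalings, with groups that do not overlap and at least 5 CPM in a group. Filled circles are RGd2 libraries 31 and 32, open circles RGd2 library 33 and triangles the 3 Etv5-KO libraries; library 33 lies between the other RGd2 libraries and the mutant at *Zscan4a*, *Gm8300*, *Zscan4d* and *Zscan4-ps3*.

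*Nphs1* and *Kirrel2*, which encode the related adhesion proteins nephrin and NEPH3, lie back to back on chromosome 7, and both fell. *Nphs1* (chr7:30458315-30487223, plus strand) went from 60.8, 54.7 and 50.6 CPM to 3.22, 2.04 and 2.74 CPM. *Kirrel2* (chr7:30447534-30457690, minus strand) went from 22.0, 21.2 and 23.6 CPM to 1.28, 0.691 and 1.06 CPM. The log2 fold change was -4.55 ± 0.17 for *Nphs1* and -4.60 ± 0.17 for *Kirrel2* (SE). Looked at after these values were seen, 3 more genes next to them had also fallen. They were *Nphs1os*, antisense to *Nphs1* (log2 fold change -3.91), *Aplp1*, of the amyloid precursor family (-2.71), and *Nfkbid*, an NF-kappa-B inhibitor (-1.61). *Lrfn3* on the one side and *Arhgap33os* and *Arhgap33* on the other were not called in either scaling, at log2 fold changes of -0.41, -0.74 and -0.42. Counting was strand-specific, so reads of *Nphs1* and *Nphs1os* could be told apart.

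Large gains included surface proteins and imprinted transcripts. *Ly6a*, which encodes the surface antigen SCA-1 and is inducible by interferon, was at 0.756, 0.748 and 0.835 CPM in RGd2 and at 35.8, 40.4 and 32.6 CPM in Etv5-KO. With a log2 fold change of 5.36 ± 0.30 (SE; edgeR adjusted p = 2.7e-17) it led the genes that rose. *Cd4*, a T-cell co-receptor, went from 0.351, 0.0277 and 0.334 CPM to 8.48, 8.39 and 8.52 CPM, and the 3 clones lay close together. *Ffar3*, a receptor for short-chain fatty acids, went from 0.162, 0.471 and 0.501 CPM to 11.5, 13.5 and 13.8 CPM. The log2 fold changes were 5.1 ± 0.55 for *Cd4* and 5.06 ± 0.41 for *Ffar3* (SE).

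*Dio3*, an imprinted deiodinase that inactivates thyroid hormone, stood at 0.972, 0.998 and 4.34 CPM in RGd2 and at 47.6, 54.5 and 46.0 CPM in Etv5-KO (log2 fold change 4.94 ± 0.30, SE). Its antisense neighbour *Dio3os*, chosen after its values were seen, rose by a log2 fold change of 3.86. *Meg3*, *Rian* and *Mirg*, long RNAs of the same imprinted domain on chromosome 12, were not called with spike-ins, at -0.26, -0.02 and 0.19. With TMM *Mirg* was called higher (0.43), except without library 25 or 33, and the others were not called. *Parm1*, a mucin-like membrane protein, rose from 3.75, 3.99 and 6.85 CPM to 51.0, 55.2 and 47.5 CPM (log2 fold change 3.37 ± 0.17, SE). *Lrrc15*, another membrane protein, rose from 9.69, 8.37 and 12.5 CPM to 70.3, 71.9 and 68.8 CPM. The autophagy receptor gene *Calcoco2* was the most abundant of those named here and rose from 90.9, 87.1 and 71.5 CPM to 383, 413 and 391.5 CPM. *Dio3*, *Parm1*, *Lrrc15* and *Calcoco2* were named on condition that no mutant library overlapped a control, so their separation is no added evidence. *Tiam2*, an exchange factor for RAC, the gap junction gene *Gjb5*, the methyltransferase gene *Bhmt*, the matrix gene *Fbln5*, the cilia gene *Cfap206* and *1700016D06Rik* also rose, with log2 fold changes from 2.94 to 3.46.

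The formative genes were lower as a group in cells that were still in 2i. Of the 17 expressed members of the list, 14 fell and 2 rose, against 13.9% and 6.76% of all genes. Their median log2 fold change was -1.05 with spike-ins and -0.83 with TMM, beside -0.20 and 0.04 over all genes. Behind *Lef1*, *Tcf15*, a bHLH factor of cells primed to differentiate, went from 4.97, 5.154 and 8.18 CPM to 0.419, 0.230 and 0.607 CPM (log2 fold change -3.89 ± 0.25, SE). *Sox4* went from 11.4, 10.9 and 13.03 CPM to 1.44, 1.32 and 1.37 CPM (-3.25 ± 0.18, SE). At both genes the groups were far apart. The de novo methyltransferase genes *Dnmt3b* and *Dnmt3a* fell by 1.45 and 0.90 on the log2 scale, and *Lin28b*, *Zic2*, *Zic5*, *Sox3*, *Sox12*, *Tead2*, *Hes6*, *Grhl2* and *Sall2* made up the rest of the 14. *Sox3* lost its call with TMM when any library but 31 was left out, and *Sall2* when 25, 26, 31 or 32 was. Without library 33, 13 members fell. Against RGd2 cells kept in 2i for 5 passages (2i-p5), several of these losses were smaller. *Lef1* and *Tcf15* were still at -3.82 and -3.00, but *Sox4* was at -0.97 and *Dnmt3b* at -0.40, all called. *Sox3* at -0.54, *Dnmt3a* at -0.057 and *Sall2* at 0.034 were not called against these controls.

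*Otx2*, a factor central to the formative state, went the other way. It was counted at 12.1, 12.7 and 12.5 CPM in RGd2 and at 38.7, 44.6 and 41.7 CPM in Etv5-KO, a log2 fold change of 1.56 ± 0.13 (SE; edgeR adjusted p = 1.1e-12). The gain was limited to 2i. At 16 h after 2i withdrawal *Otx2* was below control, at 57.6 and 64.3 CPM against 96.8, 96.9 and 85.9 CPM. Its log2 fold change there was -0.41 with spike-ins and -0.65 with TMM, both called. *Pim2*, a kinase gene, rose by 0.44 and lost its call without library 25, 26, 32 or 33. *Fgf5* and *Pou3f1*, 2 further genes of the list, were under 1 CPM in both groups.

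Naive factors as a group stayed near all genes. Of 17 expressed members 2 rose and 3 fell, and the median log2 fold change was -0.19 with spike-ins and 0.03 with TMM. The co-activator gene *Tcl1* rose from 41.8, 43.2 and 39.6 CPM to 132, 123 and 127 CPM (log2 fold change 1.44 ± 0.13, SE), and *Tbx3*, a T-box factor, rose by 0.57. *Gbx2*, a homeobox gene downstream of LIF, fell from 7.02, 6.90 and 10.5 CPM to 1.67, 1.22 and 1.58 CPM (-2.53 ± 0.21, SE). *Klf5* fell by 0.78 and *Zfp57*, a guardian of imprints, by 0.52. These 5 genes did not overlap between the groups, as was so for most called genes. Against the 2i-p5 controls with spike-ins *Klf5* was at -0.28 and *Zfp57* at 0.032, neither called. *Tcl1*, *Tbx3* and *Gbx2* kept their calls and directions. At 16 h after 2i withdrawal *Klf5* and *Zfp57* were called above control, at 1.18 and 0.65. *Nanog*, *Tfcp2l1* and *Klf4* were not called with spike-ins, at log2 fold changes of 0.14, 0.32 and 0.31, and were called higher with TMM, at 0.37, 0.55 and 0.54. *Esrrb* was called in neither, at -0.11 and 0.12.

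**Figure D3:**
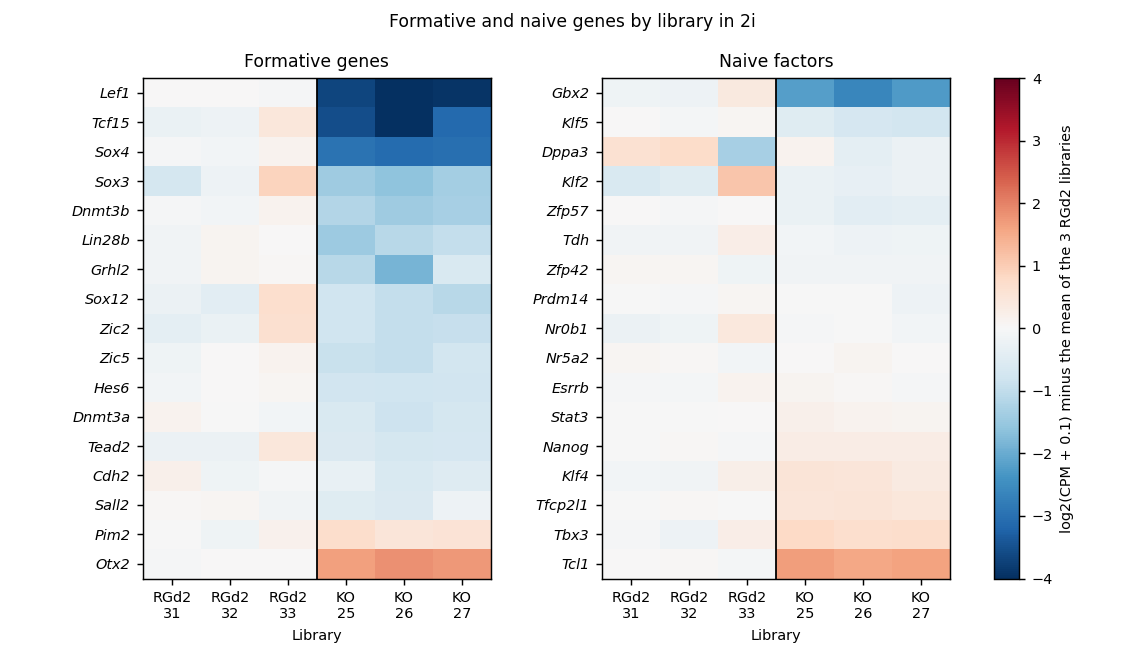
Each cell is a library's log2(CPM + 0.1) minus the mean of the 3 RGd2 libraries, for 17 formative genes on the left and 17 naive factors on the right, with libraries along the x axis. Blue is lower and red is higher than RGd2; most formative genes are blue in all 3 Etv5-KO (KO) columns, with *Otx2* and *Pim2* red, while the naive factors are mostly pale apart from *Gbx2* and *Tcl1*.

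Counts in the lists that follow stand beside 13.9% of all genes that fell and 6.76% that rose. Among genes of pluripotency in general, 5 of 15 expressed members fell and 1 rose. *Lin28a*, an RNA-binding protein that blocks let-7 maturation, fell from 285, 271 and 215 CPM to 141, 147 and 161 CPM (log2 fold change -0.97). *Dppa5a* rose from 936, 944 and 986 CPM to 1314, 1393 and 1401 CPM (0.36). *Pou5f1*, which encodes OCT4, was at 735, 711 and 921 CPM in RGd2 and at 779, 769 and 780 CPM in Etv5-KO, with no call in either scaling. The 16 expressed drivers of exit from the naive state had 1 that rose, *Zfp706* (0.53), and none that fell, a share of gains about that of all genes. With TMM, 6 of them were called higher. Of 15 further ETS factors, *Elf3*, an epithelial member, rose (0.41), and the repressor gene *Etv6* (-0.62) and *Elk4* (-0.53) fell. *Elf3* lost its call without library 26 or 32, and *Elk4*, with TMM, without library 25 or 32.

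Genes that answer to ERK were mostly lower in the mutant, although MEK was inhibited in both groups. Of 16 expressed members of the ERK feedback and target list 9 fell and 1 rose, with a median log2 fold change of -0.53 with spike-ins and -0.30 with TMM. *Dusp6*, a phosphatase gene that restrains ERK, went from 9.29, 7.79 and 13.2 CPM to 3.58, 2.73 and 3.17 CPM (-1.76 ± 0.15, SE). *Myc* went from 6.18, 6.35 and 10.5 CPM to 2.17, 1.74 and 2.11 CPM (-2.0 ± 0.17, SE). The groups did not overlap at either gene, as was so for 1632 of the 1838 genes that fell. *Spry4*, a feedback inhibitor of receptor tyrosine kinases, was the exception and rose from 0.243, 0.333 and 0.668 CPM to 1.99, 1.05 and 1.64 CPM (2.08 ± 0.28, SE). Without library 33 the genes that fell numbered 6, and *Spred2*, *Ier2* and *Ier5* were no longer called. Against RGd2 cells kept in 2i for 5 passages (2i-p5), *Myc* was at -0.16 and not called. Immediate early genes such as *Egr1* and *Fos* were under 1 CPM in both groups. Of the 4 expressed FGF ligands and receptors, *Fgf17* and *Fgfr2* (-0.64) fell, and *Fgfr2* lost its call when any library but 33 was left out.

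Wnt targets were the other list with a low median, at -1.07 with spike-ins and -0.82 with TMM, although both groups received the GSK3 inhibitor. Of 12 expressed members 8 fell and 1 rose. Besides *T*, the secreted Wnt inhibitor gene *Notum* fell from 133, 121 and 130 CPM to 41.9, 30.8 and 30.3 CPM (log2 fold change -2.05 ± 0.16, SE). *Sp5*, a direct target, fell from 14.2, 12.2 and 27.1 CPM to 7.85, 4.84 and 4.80 CPM (-1.66), and the homeobox gene *Cdx1* from 32.1, 32.9 and 51.8 CPM to 15.7, 12.4 and 13.4 CPM (-1.60). All 3 were lower in every mutant library than in any control, as were 1632 of the 1838 genes that fell. *Cdx2*, *Nkd1*, *Tcf7* and *Ccnd1* fell too, by 1.30, 1.12, 1.01 and 0.79. With TMM *Cdx2* lost its call without library 26 and *Nkd1* without 26, 27, 31 or 32. Against the 2i-p5 controls *Cdx1* was at 0.15 and *Cdx2* at -0.089, neither called. *Axin2*, a widely used reporter of the pathway, was at 107, 96.9 and 126 CPM against 104, 93.5 and 91.4 CPM and was called in neither scaling (-0.34 and -0.11). *Ascl2* was the member that rose (1.10), and it lost its call without library 25, 27 or 32.

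Of 14 expressed LIF and STAT3 genes 4 fell and none rose, beside 13.9% and 6.76% of all genes. *Socs2*, a feedback inhibitor of cytokine receptors, fell from 42.8, 42.0 and 61.0 CPM to 17.7, 18.8 and 18.1 CPM (log2 fold change -1.54), and the phosphatase gene *Ptpn6* from 35.4, 35.8 and 32.1 CPM to 14.5, 13.7 and 14.7 CPM (-1.45). *Stat3* itself was at 30.7, 30.8 and 31.2 CPM against 35.7, 34.2 and 33.7 CPM and was not called. Of 16 genes of the BMP, Nodal and Id list 6 fell and 2 rose. *Bmp4*, a ligand, fell from 6.99, 5.63 and 6.18 CPM to 1.31, 1.22 and 1.32 CPM (-2.49), whereas *Id2*, a target of BMP signals, rose from 1.70, 1.36 and 1.84 CPM to 6.28, 6.61 and 6.54 CPM (1.83). Each gene separated the groups completely, as did most called genes. *Lefty1*, a Nodal antagonist, rose by 0.56 and *Skil*, a SMAD co-repressor, fell by 1.19. Within the Notch pathway 3 of 13 expressed genes fell, *Notch4* and the ligand genes *Jag1* (-1.49) and *Jag2* (-0.81), and *Hey1*, a target of the pathway, rose (0.62). *Hey1* lost its call without library 25, 26 or 32, and *Jag2* without 27 or 31. Against the 2i-p5 controls *Hey1* was lower in Etv5-KO, at -1.15 (edgeR adjusted p = 1.0e-05). *Rbpj*, its DNA-binding factor, was not called (0.11 and 0.34).

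**Figure D4:**
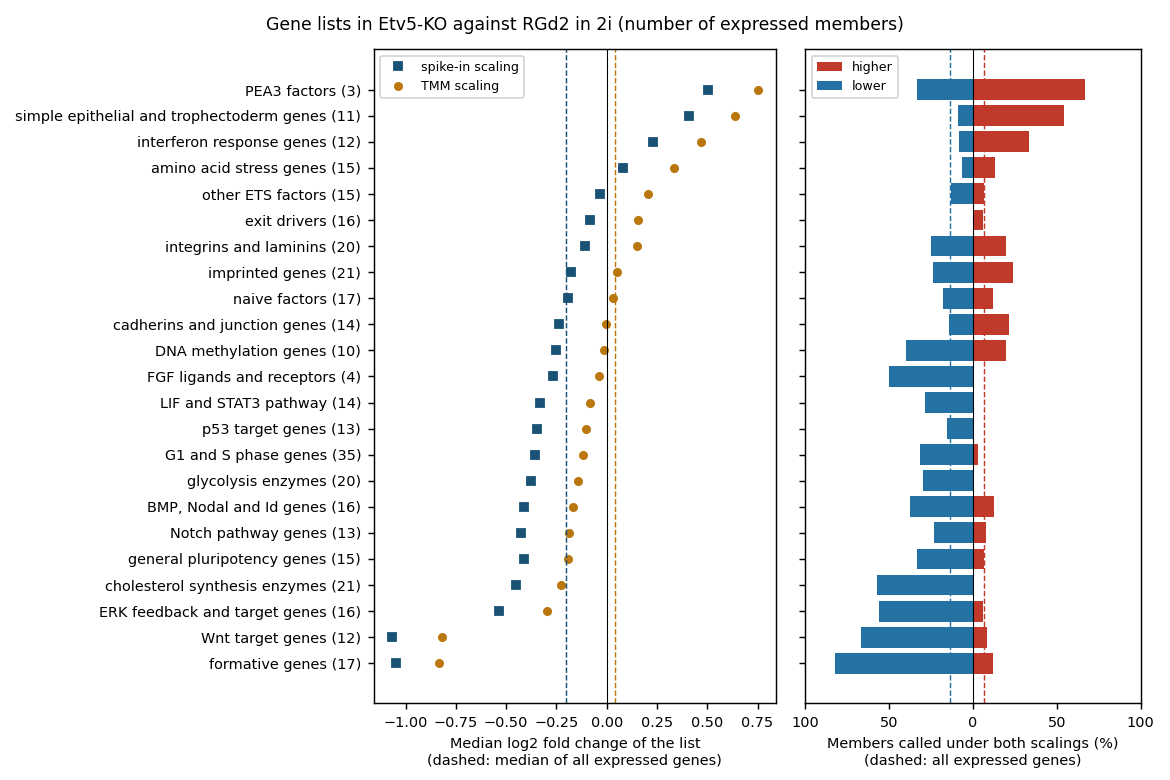
For 23 gene lists (number of expressed members in parentheses), the left panel gives the median log2 fold change under each scaling and the right panel the percent of members called higher or lower under both scalings. Dashed lines give the same over all 13201 expressed genes; formative genes and Wnt targets lie farthest to the left, and the simple epithelial and trophectoderm list, second from the top, has the longer of its bars on the higher side.

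DNA methylation enzymes moved apart. The catalytic genes *Dnmt3a* and *Dnmt3b* fell as given above, while *Dnmt3l*, their catalytically inactive partner, rose from 47.0, 44.9 and 45.6 CPM to 103, 82.9 and 104 CPM (log2 fold change 0.90 ± 0.14, SE). *Tet2*, a 5-methylcytosine oxidase, rose (0.55) and its relative *Tet3* fell (-0.85). *Dnmt1*, *Uhrf1* and *Tet1* were not called in either scaling. Of 10 members in all, 4 fell and 2 rose. Against the 2i-p5 controls *Dnmt3a* was at -0.057, *Dnmt3l* at 0.25 and *Tet3* at 0.0031, none of them called.

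Imprinted genes gained and lost in equal number, 5 of 21 expressed members each, where 6.76% of all genes rose and 13.9% fell. *H19* went from 0.756, 1.11 and 2.67 CPM to 15.1, 14.3 and 12.7 CPM (log2 fold change 3.44 ± 0.46, SE), and the neighbouring growth factor gene *Igf2* from 0.0810, 0.166 and 0.501 CPM to 2.46, 2.2 and 2.29 CPM (3.64). *Peg10*, derived from a retrotransposon, was at 41.6, 41.7 and 43.4 CPM in RGd2 and at 457, 217 and 328 CPM in Etv5-KO (2.83 ± 0.26, SE), and its neighbour *Sgce* at 2.97, 3.44 and 2.67 CPM against 20.7, 10.4 and 16.4 CPM (2.15). At both neighbours clone c16 was highest and c17 lowest, and all clones lay above the controls. *Slc38a4*, an amino acid transporter gene, fell from 59.6, 59.9 and 118 CPM to 20.0, 26.8 and 27.7 CPM (-1.77). Without library 33 the counts were 4 higher and 3 lower.

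Of 21 expressed genes of cholesterol synthesis 12 fell and none rose (13.9% and 6.76% of all genes), with a median log2 fold change of -0.45 with spike-ins and -0.23 with TMM. *Dhcr7*, which encodes the last enzyme of one branch, fell by 0.99 on the log2 scale. *Insig1*, a sterol sensor gene, fell by 0.77. Without library 33, 10 members fell, and *Mvd* and *Fdps* were not among them. Of 20 glycolysis genes 6 fell and none rose, with 3 that fell without library 31 and 8 without library 33. *Pdk1*, a brake on pyruvate entry into mitochondria, fell by 1.0 and the phosphofructokinase gene *Pfkp* by 0.89.

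Of 35 genes of G1 and S phase 11 fell and 1 rose, beside 13.9% and 6.76% of all genes. *Ccnd2* had the largest loss, *E2f2* fell from 12.8, 11.6 and 22.2 CPM to 5.99, 4.11 and 4.77 CPM (log2 fold change -1.71), and *Cdk6* fell by 0.83. *Cdkn1b*, which encodes the inhibitor p27, rose (0.42). The 6 *Mcm* genes of the replicative helicase were called by TMM in neither direction. Of 13 p53 targets 2 fell, a share near that of all genes, among them *Zmat3* (-0.85), and 7 were called lower with spike-ins. Of 15 amino acid stress genes 2 rose, *Asns* (0.41) and *Aldh1l2* (0.64), and 1 fell. With TMM, 7 were called higher, and the list's median was 0.08 with spike-ins and 0.33 with TMM. *Aldh1l2* lost its call without library 32 or 33.

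Of 11 expressed simple epithelial and trophectoderm genes 6 rose and 1, *Cdx2*, fell, with a median log2 fold change of 0.41 with spike-ins and 0.64 with TMM, where 6.76% of all genes rose and 13.9% fell. The 6 were the transcription factor genes *Tfap2c*, *Tfap2a*, *Gata2*, *Gata3*, *Elf3* and *Ascl2*, of which *Elf3* and *Ascl2* lost their calls without single libraries as given above, and *Tfap2a* without library 32. *Gata3*, a trophectoderm factor, was at 0.270, 0.499 and 0.835 CPM in RGd2 and at 2.12, 2.07 and 3.19 CPM in Etv5-KO (2.28), and *Gata2* at 0.216, 0.139 and 1.5 CPM against 2.30, 2.73 and 2.51 CPM (2.68). Both stayed at a few CPM. *Tfap2c* rose by 0.63, while the keratin genes *Krt8* and *Krt18* were not called and *Krt7* and *Krt19* were under 1 CPM in both groups. Of 14 genes of cadherins and junctions 3 rose and 2 fell. *Dsp*, which encodes desmoplakin, rose from 24.3, 21.0 and 21.5 CPM to 80.4, 94.1 and 78.8 CPM (1.73 ± 0.21, SE), and the claudin gene *Cldn4* from 46.7, 46.5 and 58.0 CPM to 139, 133 and 115 CPM (1.22). *Cdh1*, which encodes E-cadherin, was at 417, 395 and 367 CPM against 384, 426 and 367 CPM, with overlapping groups and no call.

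Of 20 integrin and laminin genes 4 rose and 5 fell, beside 6.76% and 13.9% of all genes. *Itgb7* fell from 5.80, 7.29 and 7.68 CPM to 1.23, 1.02 and 1.03 CPM (log2 fold change -2.80), and *Lama5* fell by 0.88. *Itgb3* and *Itgb5*, which encode partners of the alpha V integrin, rose by 1.68 and 0.97. Of 12 expressed interferon response genes 4 rose and 1 fell. Besides *Ly6a*, the antiviral synthetase gene *Oas1a* rose from 19.7, 19.5 and 21.7 CPM to 48.8, 47.8 and 50.3 CPM (1.11), and *Ifitm1* rose by 1.06. Against the 2i-p5 controls *Itgb3* was at 0.42 and *Ifitm1* at 0.28, neither called. The factor gene *Irf1* fell by 0.66 but lost its call with TMM without library 27 or 32, and 7 classical members such as *Isg15* and *Ifit1* were under 1 CPM in both groups.

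Markers of cell types other than ESCs were read from all 6 libraries, since in bulk RNA fewer cells of a type and less RNA per cell cannot be told apart. Summed levels of 8 ES cell markers lay between 4206 and 4727 CPM in RGd2 and between 4868 and 4876 CPM in Etv5-KO. Those of 10 primitive endoderm markers lay between 3.77 and 17.9 CPM and between 9.79 and 10.3 CPM, and those of 10 fibroblast markers between 12.6 and 15.3 CPM and between 9.28 and 10.96 CPM, with *Dcn* and *Postn* at 0 in all 6. Sums for 9 trophectoderm markers lay between 21.2 and 35.9 CPM and between 20.3 and 25.8 CPM, with the placental gene *Tpbpa* at 0. Library 33 was the highest control for primitive endoderm and for trophectoderm. Of the neural markers, *Pax6*, *Nes* and *Tubb3* fell and *Sox1* rose. The neural sum lay between 105 and 116 CPM in RGd2 and between 53.04 and 57.1 CPM in Etv5-KO, and *Olig2* was at 0. Mesendoderm markers, of which *T* fell and *Kdr* rose, summed to between 24.8 and 36.6 CPM and between 19.3 and 20.6 CPM. Of the germ cell markers, *Prdm1* and *Kit* rose and *Ddx4*, *Mael* and *Dnd1* fell. The germ cell sum lay between 208 and 224 CPM in RGd2 and between 267 and 306 CPM in Etv5-KO. *Kit* alone was at 156, 148 and 150 CPM in RGd2 and at 230, 250 and 221 CPM in Etv5-KO. The part of these levels in the results above was not tested.

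Genes of the 2-cell-like state, which a small share of ESCs enters at a time, were nearly absent in the mutant. The 11 markers summed to 44.2, 44.8 and 8.02 CPM in RGd2 and to 1.02, 1.74 and 1.66 CPM in Etv5-KO, and all 6 markers with at least 1 CPM fell. *Zscan4d* was at 13.7, 14.4 and 1.5 CPM in RGd2 and at 0.340, 0.428 and 0.369 CPM in Etv5-KO (log2 fold change -5.03 ± 0.63, SE). Library 33, of the clonal line, sat much nearer the mutant clones than the parental libraries did, although above them. *Zscan4a*, *Zscan4-ps3* and *Gm8300* had the same order of libraries, with log2 fold changes from -5.40 to -4.43. *Zscan4* copies are nearly identical and only unique matches were counted, so how the family's reads were split between copies is uncertain. Whether a clonal origin bears on these levels was not tested.

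Set directly against 3 Rbpj-KO clones in 2i, which lack the DNA-binding factor of the Notch pathway, the same Etv5-KO libraries had 856 genes higher (6.48%) and 1725 lower (13.1%) under both scalings. *Notch4* was at 42.9, 34.7 and 35.7 CPM in Rbpj-KO, and the difference between the mutants was -4.97 on the log2 scale (edgeR adjusted p = 1.4e-23). *Epas1* was at 12.3, 11.02 and 16.2 CPM in Rbpj-KO, and differed by -4.97. On the other side, *Cd4* was at 0.597, 0.339 and 0.309 CPM in Rbpj-KO (difference 4.35) and *Lzts1* at 0.821, 0.577 and 0.278 CPM (3.69). *Ly6a* was at 2.31, 2.44 and 3.49 CPM in Rbpj-KO, each above every RGd2 library, and still differed by 3.60. *Cubn* differed by -4.81, but 1 Rbpj-KO library of 3 held most of it, at 16.8 CPM against 2.84 and 2.58. *Lef1* was low in both mutants, at 1.72, 1.36 and 1.64 CPM in Rbpj-KO, and *Etv4* at 22.8, 17.6 and 19.3 CPM in Rbpj-KO was not called different from Etv5-KO (-0.25, edgeR adjusted p = 0.15). *Gbx2*, *Dnmt3b* and *Tbx3* were also not called different between the mutants in either scaling. *Nphs1*, *Fgf17* and *Sox4* had means of 19.5, 3.99 and 3.89 CPM in Rbpj-KO, below 55.4, 13.9 and 11.8 CPM in RGd2. All 3 were lower still in Etv5-KO. Rbpj-KO was not tested against RGd2.

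The effect of *Etv5* loss was not the same after release from 2i. At N16h, 16 h after the inhibitors were withdrawn into N2B27, 2 Etv5-KO and 3 RGd2 libraries, as the labels give them, formed a second comparison with its own control libraries. The labels and the published methods differ on which group lacks a replicate at this time. The N16h mutant libraries are of clones c17 and c1, and the RGd2 lines also recur, which the model did not take into account. The effect at N16h minus the effect in 2i was called above 0 for 1024 genes (7.76%) and below 0 for 83 (0.629%) under both scalings; with spike-ins alone the counts were 4788 and 83, and with TMM alone 1024 and 686. *Notch4* was near the control level at N16h, at 24.5 and 24.5 CPM in Etv5-KO against 19.8, 19.0 and 20.9 CPM in RGd2, so its effect changed by 5.60 on the log2 scale (edgeR adjusted p = 3.3e-21). *Rac2*, which encodes a small GTPase, fell in 2i, from 13.1, 14.8 and 13.03 CPM to 1.65, 1.12 and 0.870 CPM, and at N16h was above control (log2 fold change 1.75), at 9.51 and 10.01 CPM against 3.30, 3.15 and 3.59 CPM. *T* was at 0.797 and 0.504 CPM against 0.618, 0.707 and 0.649 CPM at N16h, where the controls had lost it. The positive effects on *Cd4* and *Tiam2* became smaller: *Cd4* was at 0.512 and 0.192 CPM and *Tiam2* at 2.22 and 2.47 CPM in Etv5-KO at N16h. Other positive effects became larger under both scalings, by 2.09 for *Tbx3*, 2.23 for *Hey1* and 1.24 for *Oas1a*. Some effects turned their sign. That on *Otx2* went from above to below control, a change of -1.96 (edgeR adjusted p = 1.2e-10). Those on *Klf5* and *Zfp57* went from below to above control, changes of 1.97 and 1.17. *Ly6a* remained above control, at 16.6 and 12.3 CPM against 0.0294, 0.150 and 0.173 CPM. For *Gm11168* the difference of 5.90 came from 1 library: it was at 0.810, 0.804 and 404 CPM in RGd2 2i, and without library 33 its log2 fold change in 2i went from -6.27 to 0.74.

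**Figure D5:**
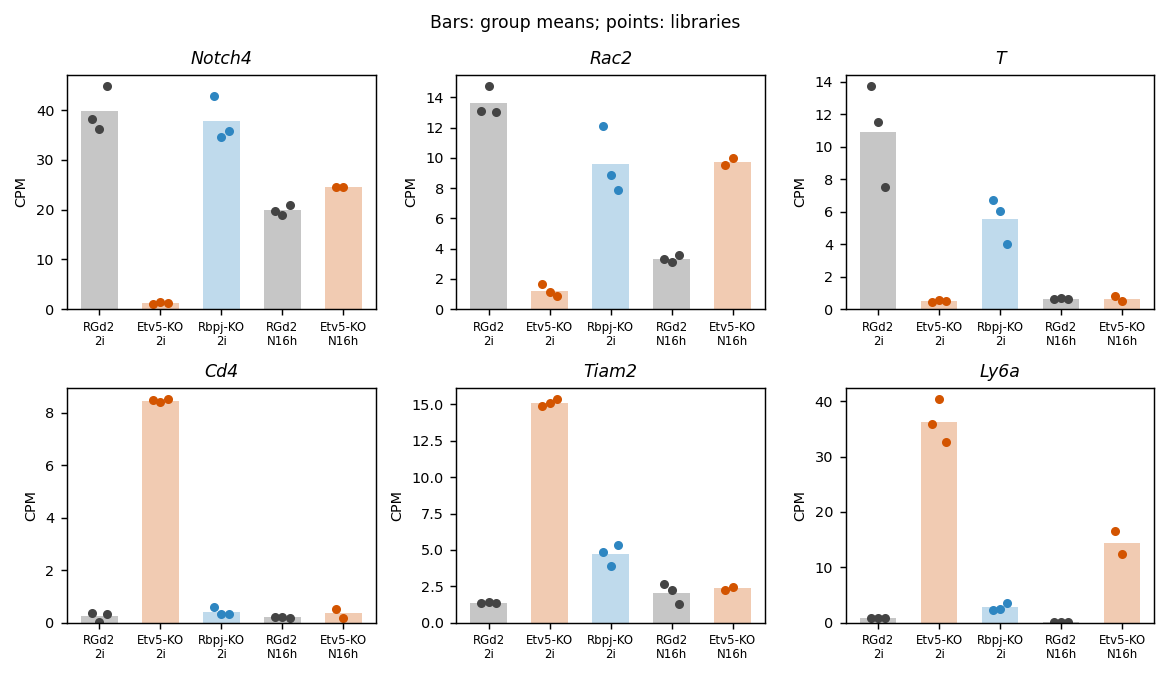
CPM (y axis, from 0) of 6 genes in RGd2 and Etv5-KO in 2i, Rbpj-KO in 2i, and RGd2 and Etv5-KO 16 h after 2i withdrawal (N16h). Bars are group means and points are single libraries; *Notch4* and *Rac2* have their lowest bar, and *Cd4*, *Tiam2* and *Ly6a* their highest, in Etv5-KO in 2i.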

How the data were processed

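The deposited table held raw counts per gene for 51826 genes and 92 ERCC spike-ins. Per the labels and the study's methods, the authors trimmed reads with Trim Galore, dropped those under 20 nt, aligned them to mm10 with TopHat2 and counted unique, strand-specific matches with featureCounts; versions are not given in the sources used here. Libraries were made from ribosomal RNA-depleted total RNA.

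Counts of all conditions were fitted in 1 model in R 4.3.3 with the quasi-likelihood test of edgeR 4.0.16, after filterByExpr. Benjamini-Hochberg adjustment ran over the 19037 genes that passed, and calls were counted among the 13201 with a mean of at least 1 CPM in either group. Size factors came from the spike-ins, as in the study, or from TMM. DESeq2 1.42.0, other size factors, filters, a 6-library model, other controls and left-out libraries were alternatives. Scripts were tested on simulated data. Gene coordinates and lengths came from the deposited table, and FPKM were computed from those lengths. Guide positions came from the GENCODE annotation of GRCm38. Genes without a symbol (193) held 0.0259% of counts.

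The genes compared and the lists were chosen with earlier results of these data known. Named were the PEA3 genes, up to 5 members a list, the 12 largest changes and 5 smallest p per direction (called under both scalings, groups not overlapping, at least 5 CPM), and the 3 largest differences per direction from Rbpj-KO and at N16h. Other list members, the neighbours of *Kirrel2* and *Dio3*, and markers were named after their values were seen. Depth was lowest, and counting error therefore largest, in RGd2 library 33. Some list members are not reported here by name.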

Additional observations from a re-analysis of the deposited data

Results flagged for a closer look

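Under both scalings, 1024 genes had an effect of *Etv5* loss called larger at N16h than in 2i, and 83 smaller. The 5 genes given here are those of the 3 largest differences per direction with spike-ins that were also called with TMM. Other genes also differed, and *Otx2* and *Klf5*, for example, had effects at N16h opposite in sign to those in 2i. The effect at N16h minus that in 2i, on the log2 scale with spike-ins, was 5.60 for *Notch4*, 5.41 for *Rac2*, -4.15 for *Cd4*, -2.88 for *Tiam2* and -2.74 for *Spic*. All 5 were called by edgeR under both scalings (adjusted p at most 0.0288). *Spic*, an ETS factor gene, was at 14.5, 15.6 and 10.5 CPM in RGd2 and at 19.5, 21.4 and 21.0 CPM in Etv5-KO in 2i. At N16h it was at 0.206, 0.171 and 0.130 CPM in RGd2 and at 0.0569 and 0 CPM in Etv5-KO, so that its difference rests on levels near 0. *Cd4* at N16h was likewise under 1 CPM in every library. The N16h effect itself was called for *Rac2* under both scalings and not for *Cd4*, *Tiam2* or *Spic*, and for *Notch4* with spike-ins only.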

How the results depend on the processing

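Genes called higher and lower with spike-ins (892 and 3747) became 2611 and 1838 with TMM, 2314 and 2147 with median-of-ratios factors, and 3197 and 1415 against RGd2 cells kept in 2i for 5 passages (2i-p5). The lower count was 1603 in a model of the 6 libraries and 1886 at a fold of at least 1.5. Leaving out each library gave 630 to 1168 higher and 1923 to 5593 lower genes, with 2389 lower without library 27 and 1923 without library 31. With TMM the 2611 higher genes became 1587 in the 6-library model. Leave-one-out TMM counts were 2201 to 2496 higher and 1492 to 2101 lower. The median log2 fold change became 0.039 with TMM and 0.0029 with median-of-ratios factors, and ran from -0.28 to -0.05 over the left-out libraries. The 4871 genes whose effect differed at N16h (4788 above 0 and 83 below) became 1710 with TMM (1024 and 686). The 3517 genes that differed from Rbpj-KO (857 higher and 2660 lower) became 3926 with TMM (2201 and 1725). The cause was not tested.

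Of 143 genes named and followed through each alternative, no called gene turned its direction under another scaling. A change of scaling mainly shifts all genes together, so this is no added evidence. With 2i-p5 controls 20 of the 143 changed sign, to log2 fold changes of *Axin2* 0.093, *Cdh1* 0.44, *Cdx1* 0.15, *Cubn* 0.67, *Dnmt1* 0.17, *Elk4* 0.0064, *Esrrb* 0.32, *Etv6* 0.14, *Gm11168* 1.53, *Hey1* -1.15, *Mirg* -0.39, *Pou5f1* 0.050, *Sall2* 0.034, *Spred2* 0.15, *Stat3* 0.11, *Tet1* 0.15, *Tet3* 0.0031, *Tfap2c* -0.20, *Uhrf1* 0.72 and *Zfp57* 0.032. Another 16 lost their calls with those controls, among them *Myc*, *Dnmt3a*, *Cdx2*, *Itgb3* and *Ifitm1*. Uncalled genes near 0 also changed sign with TMM, at *Cdh1* 0.069, *Esrrb* 0.12, *Krt18* 0.036, *Pou5f1* 0.058, *Rian* 0.22, *Stat3* 0.23, *Tet1* 0.012 and *Uhrf1* 0.13, with median-of-ratios factors, at *Cdh1* 0.027, *Esrrb* 0.069, *Krt18* 0.012, *Pou5f1* 0.0072, *Rian* 0.18, *Stat3* 0.19 and *Uhrf1* 0.089, and in the 6-library model, at *Rian* 0.011 and *Stat3* 0.022. Over the left-out libraries values ran from -0.31 to 0.021 for *Cdh1*, -0.18 to 0.013 for *Esrrb*, -6.87 to 0.74 for *Gm11168*, -0.45 to 0.15 for *Krt18*, -0.020 to 0.47 for *Mirg*, -0.27 to 0.20 for *Rian*, -0.089 to 0.13 for *Stat3* and -0.22 to 0.070 for *Uhrf1*; without library 33 *Gm11168* was 0.74. The list counts without libraries 31 and 33 were chosen after seeing the data. No paired analysis was possible because the Etv5-KO and RGd2 libraries share no replicate numbers. The depth of library 33 limited the precision of low genes.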
